A study of Mus musculus with 16 samples.

Results

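The mouse H2 genes, the major histocompatibility complex of the mouse, were followed across 16 libraries of sorted olfactory mucosa cells. Members were all genes whose platform symbol starts with H2-, with 1 probe set per gene, which gave 35 of the 19505 genes with a symbol. Of these, 25 were class I genes and 9 were class II genes. H2-Ke6, a steroid dehydrogenase gene that carries the prefix because of where it lies, belongs to neither class. All 35 stayed in the tests, since no filter on low values was applied.

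Class I molecules are surface proteins made of an H2 heavy chain and beta-2 microglobulin. They show peptides from inside the cell to CD8 T cells and to natural killer cells, and most nucleated cells can make them. Class II molecules pair an alpha and a beta chain, and show peptides taken up from outside to CD4 T cells. They are made mainly by B cells, dendritic cells and macrophages. Both sets are raised by interferon gamma. In the nose, a group of nonclassical class I genes, the H2-Mv genes (here H2-M1, H2-M9, H2-M11 and the H2-M10 genes), is known from neurons of the vomeronasal organ.

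The study exposed C57BL/6 mice that carry S100a5-tauGFP, a green fluorescent protein reporter tied to the activity-induced neuronal gene S100a5, to an odor or to air. The 24 mice, of both sexes and 7 to 12 weeks old, sat singly in clean air chambers for 40 h. From 26 h they were given pulses of 10 s every 20 min, either of whiskey lactone mixed with isoamyl acetate or of filtered air as the vehicle. Olfactory mucosa cells were pooled from 3 mice and sorted for GFP, and 50 to 100 ng of RNA from each fraction went onto 1 Affymetrix array.

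That made 4 groups of 4 libraries: odor titled GFP+, odor titled GFP-, vehicle titled GFP+ and vehicle titled GFP-, from 8 pools of mice. The 2 fractions of a pool share their mice. All groups carry the reporter, and each library is a pool, so the spread between libraries is a spread between pools and not between mice. The words "titled GFP+" and "titled GFP-" are used because in all 16 samples the title gave one GFP fraction and the cell type tag the other. Taking the tags in place of the titles would reverse the sign of each fraction difference given here. S100a5, whose reporter the sort used and which so checks the labels, was higher in the titled GFP- library in 7 of 8 pools (odor difference -1.16 ± 0.20, SE, over 14 arrays, limma adjusted p = 0.000588). The remaining pool, vehicle replicate 3, ran the other way. Results are therefore given over all 16 arrays and over the 14 arrays without that pool. In the other 7 pools, titled GFP+ was thus the fraction with less S100a5. Omp, the defining gene of mature olfactory sensory neurons, lay between 18.44 and 18.68 on the deposited log2 scale in all 16 libraries.

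Values in the table ran from 1.69 to 19.4, a wider range than a 16-bit scanner allows, so every difference stays on the log2 scale of the deposited table and no fold is printed. Levels are not compared between genes, because each gene was read by its own probe set. The 5222 negative control probe sets of the array had a median of 5.46, and 14 of the 35 H2 genes had a mean above it, 7 of class I and 6 of class II. Of the 16 members called between fractions in at least 1 treatment over 14 arrays, 8 had a mean below it: H2-M3, H2-M5, H2-Oa, H2-Ob, H2-Q1, H2-Q2, H2-Q4 and H2-Q5. For these the size of a difference is uncertain, because their means lie below that of a typical negative control. The same limit holds for members with a higher mean whose lower group lies near that median. In odor titled GFP-, H2-D1 ran from 4.61 to 5.31 and H2-Eb1 from 5.11 to 5.55. Class I genes are close copies of each other, and a probe set may also bind the transcript of a neighbour, so the values of single class I genes are uncertain in that respect. In all of these bulk fractions, fewer cells of a type and less RNA per cell cannot be told apart.

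Start regions of 29 of the 35 members were in the RefSeq table of assembly GRCm38.p6, 20 of class I and 8 of class II, each from 250 bases before to 50 bases after the annotated start. The build behind the array's own annotation is not given in the sources used here. Class II promoters are known for an X box and a Y box that bind the RFX and NF-Y complexes, and class I promoters for an interferon response element. Letters that stand for these elements were searched on both strands, after the sequences had been seen: TGATTGG (reverse CCAATCA, Y box core), AGCAAC (reverse GTTGCT, X box core) and TTTCACTT (reverse AAGTGAAA, interferon response element core). The matches are in capitals in 6 regions, shown because H2-Aa, H2-Eb1, H2-K1 and H2-D1 have wide fraction differences in these data, while H2-DMb1 and H2-M10.6 were not called over 14 arrays without the pools of mice as a block. H2-Ab1, whose difference is as wide, is named only. H2-Aa lies at chr17:34287774-34288073 on the minus strand, H2-Eb1 at chr17:34305617-34305916 on the plus strand, and H2-DMb1 at chr17:34152941-34153240 on the plus strand. H2-K1 lies at chr17:34000298-34000597 on the minus strand, H2-D1 at chr17:35262844-35263143 on the plus strand, and H2-M10.6 at chr17:36811925-36812224 on the plus strand.
H2-Aa: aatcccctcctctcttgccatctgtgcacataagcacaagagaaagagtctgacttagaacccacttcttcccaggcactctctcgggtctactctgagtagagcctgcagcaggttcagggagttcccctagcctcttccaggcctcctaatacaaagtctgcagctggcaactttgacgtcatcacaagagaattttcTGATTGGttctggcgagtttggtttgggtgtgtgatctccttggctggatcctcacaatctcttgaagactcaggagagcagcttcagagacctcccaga
H2-Eb1: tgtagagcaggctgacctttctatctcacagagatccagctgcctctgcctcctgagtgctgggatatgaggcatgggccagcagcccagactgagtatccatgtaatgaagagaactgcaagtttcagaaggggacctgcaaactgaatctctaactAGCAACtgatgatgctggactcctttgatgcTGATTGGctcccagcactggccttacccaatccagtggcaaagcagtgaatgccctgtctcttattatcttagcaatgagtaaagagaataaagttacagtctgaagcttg
H2-DMb1: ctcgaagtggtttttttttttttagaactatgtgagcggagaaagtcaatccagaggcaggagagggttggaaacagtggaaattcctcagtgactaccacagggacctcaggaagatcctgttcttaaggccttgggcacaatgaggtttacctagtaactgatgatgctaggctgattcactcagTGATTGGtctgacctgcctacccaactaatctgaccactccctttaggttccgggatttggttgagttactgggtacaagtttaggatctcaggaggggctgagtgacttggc
H2-K1: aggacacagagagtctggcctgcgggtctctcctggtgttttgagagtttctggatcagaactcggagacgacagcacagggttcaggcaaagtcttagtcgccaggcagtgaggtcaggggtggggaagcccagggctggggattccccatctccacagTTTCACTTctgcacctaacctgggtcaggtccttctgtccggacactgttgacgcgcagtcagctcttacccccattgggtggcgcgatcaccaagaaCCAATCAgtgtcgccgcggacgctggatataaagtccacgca
H2-D1: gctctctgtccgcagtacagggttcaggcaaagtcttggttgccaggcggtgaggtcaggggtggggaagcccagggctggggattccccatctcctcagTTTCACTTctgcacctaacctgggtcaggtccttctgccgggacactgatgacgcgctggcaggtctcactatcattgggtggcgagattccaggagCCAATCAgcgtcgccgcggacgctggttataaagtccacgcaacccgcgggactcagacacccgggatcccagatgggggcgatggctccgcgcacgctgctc
H2-M10.6: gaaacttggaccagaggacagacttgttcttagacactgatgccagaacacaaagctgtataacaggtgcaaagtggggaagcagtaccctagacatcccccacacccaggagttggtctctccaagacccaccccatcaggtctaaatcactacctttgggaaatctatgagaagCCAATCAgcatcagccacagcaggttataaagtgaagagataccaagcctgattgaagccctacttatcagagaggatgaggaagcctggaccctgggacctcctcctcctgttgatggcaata

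The Y box letters stood in 14 of 20 class I and 7 of 8 class II start regions, against 8.2% of 27025 promoters of the same length. H2-DMa was the class II region without them. They stood in 8 of 9 H2-Mv regions. The interferon response element letters stood in 7 of 20 class I regions (H2-D1, H2-K1, H2-M3, H2-Q10, H2-Q4, H2-T22 and H2-T3) and in 0 of 8 class II regions, against 1.67% of all promoters. X box letters were found in 3 of 20 class I and 4 of 8 class II regions, against 14.8% of all. In H2-Eb1 the first X box base lay at -92 and the first Y box base at -61 from the annotated start, while in H2-K1 the Y box letters lay at 9, after that start. No 2 of these matches overlapped. They are matches of letters only, and a region without them says nothing about binding there. The letters were searched after these sequences had been seen. Several class I regions, such as those of the H2-M10 genes, are also near copies of each other. The counts are thus not independent, and the shares of all promoters do not test them.

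**Figure D1:**
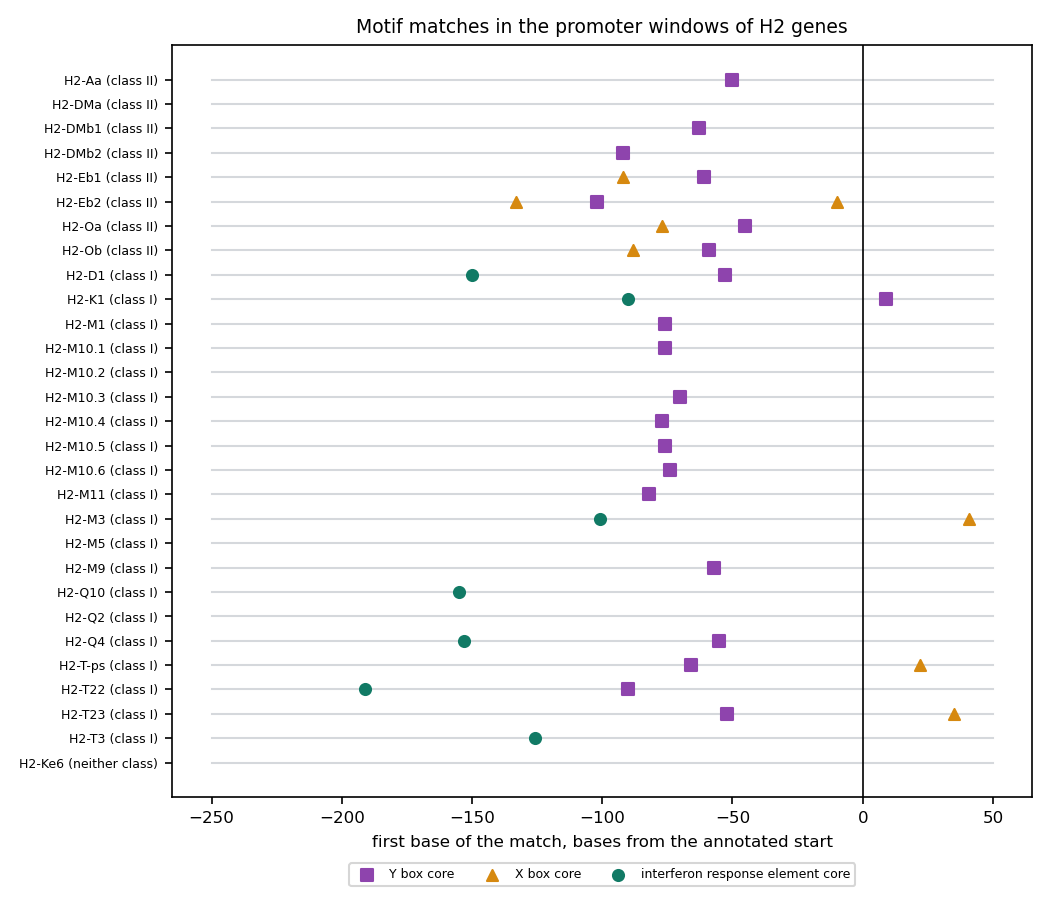
Each line is the window of 1 H2 gene, from 250 bases before to 50 bases after the annotated start (horizontal axis, bases; vertical line, the start), and each symbol marks the first base of a match to the Y box, X box or interferon response element letters. Y box matches fall in 7 of 8 class II windows, and interferon response element matches in class I windows.

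H2-Aa and H2-Ab1 had the highest estimated gaps of all members in both treatments over 14 arrays, with H2-Eb1, H2-D1 and H2-K1 next in an order that their SEs do not separate. H2-Aa is the alpha chain of the I-A molecule. Its odor levels, replicates 1 to 4 in order here and throughout, were 11.41, 11.09, 10.79 and 10.09 titled GFP+ and 6.73, 6.88, 5.62 and 6.10 titled GFP-. The vehicle levels were 11.10, 11.20, 5.94 and 10.91 titled GFP+ and 6.82, 6.33, 11 and 6.39 titled GFP-. Every titled GFP+ library was thus above every titled GFP- library except in vehicle replicate 3, whose 2 libraries had each other's usual level. The odor difference was 4.51 ± 0.29 (SE) over 14 arrays (limma adjusted p = 3.08e-08) and the vehicle difference 4.55 ± 0.33 (adjusted p = 2.09e-07). With vehicle replicate 3 kept, the odor difference had an SE of 1.11 and an adjusted p of 0.0315, and the vehicle difference fell to 2.15 ± 1.11 (SE) with an adjusted p of 0.546.

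H2-Ab1, the beta chain that pairs with H2-Aa, followed it. It was at 10.67, 10.75, 9.85 and 10.38 in odor titled GFP+ and at 6.74, 6.13, 6.50 and 6.59 in odor titled GFP-. In vehicle it was at 10.91, 10.85, 5.91 and 9.94 titled GFP+ and at 6.57, 7.06, 10.80 and 6.47 titled GFP-. The groups did not overlap in odor, nor in vehicle without replicate 3. Its difference was 3.92 ± 0.25 (SE) in odor and 3.87 ± 0.29 (SE) in vehicle over 14 arrays (limma adjusted p = 2.62e-08 and 2.16e-07), and over 16 arrays the adjusted p was 0.0343 in odor and 0.618 in vehicle.

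I-E is the other classical class II molecule, and its alpha chain gene H2-Ea was not among the 35 members. H2-Eb1 encodes the beta chain alone, so the values do not show whether any I-E molecule was made in these mice. The levels of H2-Eb1 were 8.88, 9.35, 8.15 and 7.83 in odor titled GFP+ and 5.55, 5.11, 5.19 and 5.48 in odor titled GFP-. In vehicle they were 9.29, 8.54, 5.48 and 8.51 titled GFP+ and 5.35, 5.76, 7.81 and 5.66 titled GFP-. Again vehicle replicate 3 alone crossed the groups. H2-Eb1 differed by 3.22 ± 0.28 (SE) in odor and by 3.19 ± 0.33 (SE) in vehicle over 14 arrays (limma adjusted p = 8.64e-07 and 6.41e-06). The neighbouring gene H2-Eb2 showed differences of 0.07 ± 0.16 and -0.05 ± 0.18 (SE) and was not called.

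**Figure D2:**
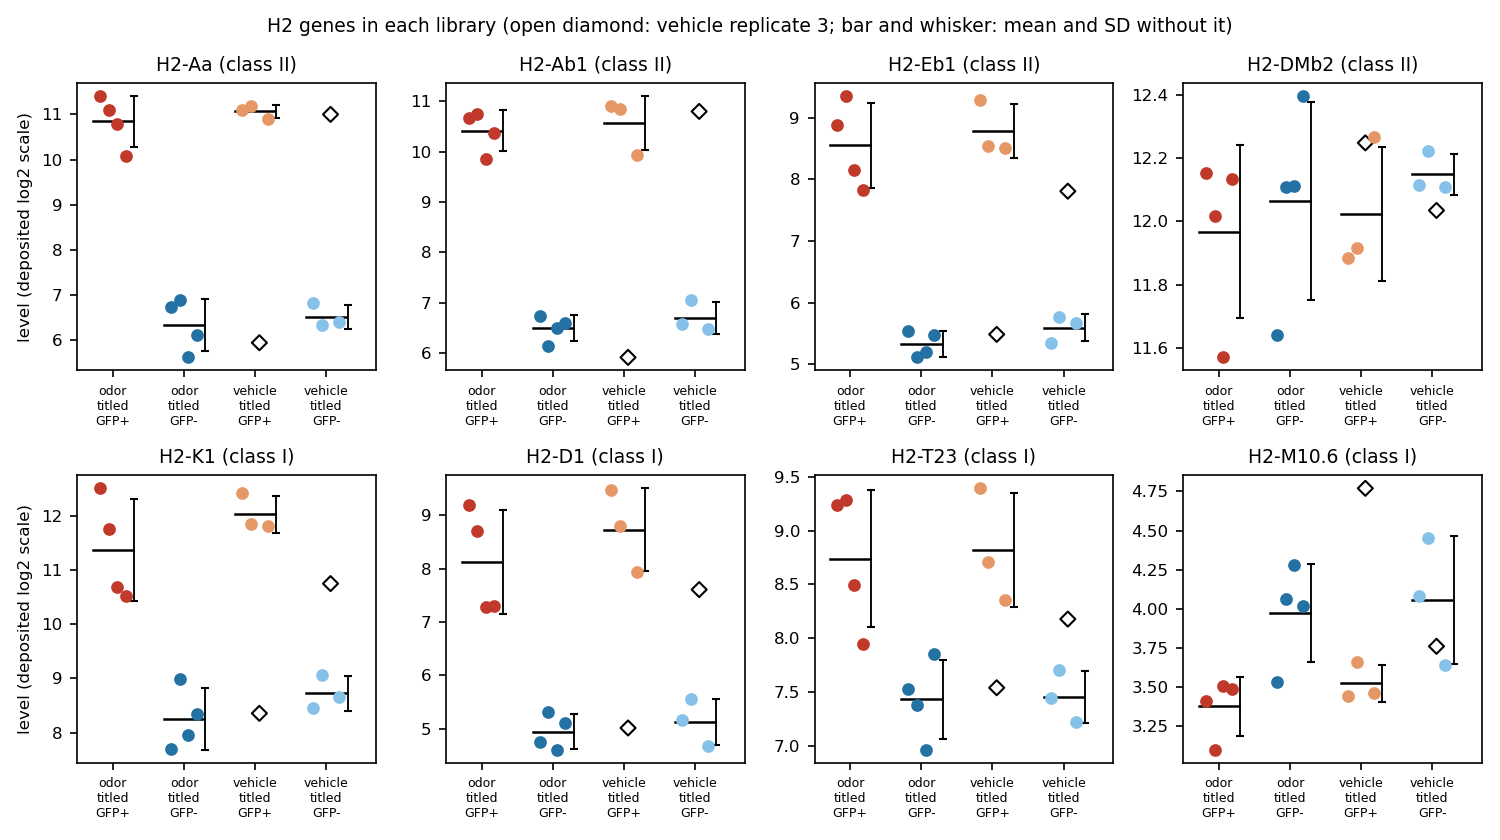
Level of 8 H2 genes in each library on the deposited log2 scale (vertical axis) for the 4 groups, with 1 point per library, an open diamond for vehicle replicate 3, and the mean and SD of the other libraries. H2-Aa, H2-Ab1, H2-Eb1, H2-K1 and H2-D1 lie apart between the titled fractions in both treatments, H2-DMb2 overlaps, and the diamonds sit in the opposite fraction for the genes that lie apart.

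The genes that load peptide onto class II molecules differed less. H2-DMa, the alpha chain of the peptide exchange factor H2-M, was at 6.38, 6.73, 6.13 and 5.76 in odor titled GFP+ and at 4.85, 5.70, 5.46 and 5.72 in odor titled GFP-. In vehicle it was at 6.12, 6.32, 5.26 and 6.40 titled GFP+ and at 5.14, 5.72, 5.89 and 4.82 titled GFP-. The groups did not overlap in odor, by a narrow margin, nor in vehicle without replicate 3. The odor difference was 0.82 ± 0.25 (SE, limma adjusted p = 0.0378 over 14 arrays, and 0.0512 with the pools as a block), and the vehicle difference 1.05 ± 0.28 (SE, adjusted p = 0.0225). Across other settings and left-out libraries the adjusted p reached 0.181 in odor and 0.110 in vehicle. Its partner chains were not called: H2-DMb1 differed by 0.35 ± 0.17 and 0.01 ± 0.19, and H2-DMb2 by -0.10 ± 0.18 and -0.12 ± 0.21 (SE, odor and vehicle). H2-DMb2 ran from 11.57 to 12.40 over all 16 libraries, and its titled fractions overlapped in both treatments.

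H2-Oa and H2-Ob form H2-O, which restrains H2-M and is known from B cells. H2-Oa was at 5.86, 5.002, 5.06 and 4.41 in odor titled GFP+ and at 4.15, 4.14, 4.11 and 4.40 in odor titled GFP-. In vehicle it was at 5.44, 5.07, 4.23 and 5.48 titled GFP+ and at 3.71, 3.58, 4.80 and 4.08 titled GFP-. Its difference was 0.89 ± 0.24 (SE) in odor and 1.54 ± 0.28 (SE) in vehicle over 14 arrays (limma adjusted p = 0.0204 and 0.00109). The odor call was lost after centring and without odor replicate 1 titled GFP+ or replicate 3 titled GFP- (adjusted p up to 0.0653). The odor groups did not overlap, but their nearest libraries, both of replicate 4, were at 4.41 and 4.40. H2-Ob was at 6.28, 5.29, 5.15 and 4.84 in odor titled GFP+ and at 4.69, 4.77, 4.53 and 4.83 in odor titled GFP-. Its vehicle levels were 6.48, 6.02, 4.66 and 5.01 titled GFP+ and 4.57, 4.56, 5.44 and 4.33 titled GFP-. As with H2-Oa, replicate 4 brought the odor groups close together. H2-Ob differed by 0.69 ± 0.30 (SE, adjusted p = 0.173) in odor, which missed the threshold, and by 1.35 ± 0.35 (SE, adjusted p = 0.0173) in vehicle.

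Among class I genes, the classical H2-K1 and H2-D1 led. H2-K1, the K molecule that presents peptide to CD8 T cells, was at 12.50, 11.74, 10.68 and 10.51 in odor titled GFP+ and at 7.70, 8.997, 7.97 and 8.34 in odor titled GFP-. In vehicle it was at 12.42, 11.85, 8.36 and 11.81 titled GFP+ and at 8.45, 9.07, 10.75 and 8.66 titled GFP-. The lowest odor library titled GFP+ stayed above the highest one titled GFP-, and in vehicle only replicate 3 crossed. The difference was 3.11 ± 0.38 (SE) in odor and 3.30 ± 0.44 (SE) in vehicle over 14 arrays (limma adjusted p = 2.94e-05 and 7.87e-05). Over 16 arrays the odor adjusted p was 0.0315 and the vehicle one 0.478.

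H2-D1, the D molecule, was at 9.19, 8.71, 7.29 and 7.30 in odor titled GFP+ and at 4.76, 5.31, 4.61 and 5.10 in odor titled GFP-. In vehicle it was at 9.47, 8.81, 5.01 and 7.93 titled GFP+ and at 5.16, 5.55, 7.61 and 4.68 titled GFP-. Within odor titled GFP+, replicates 1 and 2 lay above replicates 3 and 4 for both H2-D1 and H2-K1. H2-D1 differed by 3.18 ± 0.41 (SE) in odor and by 3.61 ± 0.48 (SE) in vehicle over 14 arrays (limma adjusted p = 5.2e-05 and 7.04e-05).

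The nonclassical class I genes of the Q and T regions gave smaller differences. H2-T23 encodes Qa-1, the ligand of the natural killer cell receptor made of Klrc1 and Klrd1. It was at 9.24, 9.28, 8.49 and 7.95 in odor titled GFP+ and at 7.53, 7.38, 6.96 and 7.85 in odor titled GFP-, without overlap. Its vehicle levels were 9.39, 8.70, 7.54 and 8.35 titled GFP+ and 7.44, 7.71, 8.18 and 7.22 titled GFP-. Its difference was 1.31 ± 0.30 (SE) in odor and 1.36 ± 0.34 (SE) in vehicle over 14 arrays (limma adjusted p = 0.00671 and 0.0158). H2-Q4, a Qa-region heavy chain, was at 6.25, 5.65, 5.04 and 4.41 titled GFP+ and at 3.76, 3.99, 3.68 and 4.23 titled GFP- in odor. Its vehicle levels were 6.49, 6.07, 3.46 and 5.79 titled GFP+ and 3.40, 4.13, 4.93 and 3.49 titled GFP-, again with replicate 3 alone crossing. It differed by 1.42 ± 0.31 (SE) in odor and by 2.44 ± 0.36 (SE) in vehicle (adjusted p = 0.00535 and 0.000213).

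Of the other Q genes, H2-Q1 and H2-Q2 passed in odor. H2-Q2, below the negative control median in all 16 libraries, was at 3.79, 3.96, 3.66 and 3.47 titled GFP+ against 2.91, 3.12, 2.80 and 2.24 titled GFP- in odor. The vehicle libraries were at 3.92, 4.31, 2.95 and 4.03 against 2.98, 2.95, 3.59 and 2.67. It was called in both treatments (0.95 ± 0.19 in odor and 1.22 ± 0.21 in vehicle, SE, limma adjusted p = 0.00199 and 0.000948). H2-Q1 differed by 0.82 ± 0.23 (SE, adjusted p = 0.0282) in odor with overlapping groups, a call lost after centring and without 1 library in 4 of 14 fits (adjusted p up to 0.104). It differed by 0.45 ± 0.27 (SE, adjusted p = 0.362) in vehicle. H2-T-ps, named as a pseudogene of the T region, differed by 1.05 ± 0.27 (SE) in odor, where its adjusted p was 0.0174 without and 0.0588 with the pools as a block. Its vehicle difference was 0.70 ± 0.32 (SE, adjusted p = 0.209).

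H2-M3, H2-Q5 and H2-M5 passed the threshold in vehicle and not in odor. H2-M3, which presents formylated peptides of bacteria and mitochondria, was at 5.78, 4.67, 3.55 and 5.25 in vehicle titled GFP+ and at 3.72, 3.91, 4.72 and 3.38 in vehicle titled GFP-. In odor it was at 5.06, 4.44, 3.78 and 4.18 titled GFP+ and at 3.68, 3.82, 3.45 and 3.73 titled GFP-, with overlap. It differed by 1.56 ± 0.30 (SE, limma adjusted p = 0.00211) in vehicle and by 0.70 ± 0.26 (SE, adjusted p = 0.105) in odor. H2-Q5 was at 6.45, 5.68, 4.28 and 5.83 in vehicle titled GFP+ and at 4.56, 4.82, 5.22 and 4.32 in vehicle titled GFP-. In odor the groups lay closer, at 5.70, 4.87, 4.97 and 4.91 titled GFP+ and at 4.33, 4.26, 4.52 and 4.76 titled GFP-. Its difference was 1.42 ± 0.25 (SE, adjusted p = 0.000997) in vehicle and 0.65 ± 0.22 (SE, adjusted p = 0.0671) in odor. H2-M5 was the 1 member called lower, at 3.11, 3.60, 4.10 and 3.46 in vehicle titled GFP+ against 4.64, 4.08, 3.66 and 4.15 titled GFP- (-0.90 ± 0.23, SE, adjusted p = 0.0157). In odor it differed by -0.13 ± 0.20 (SE, adjusted p = 0.749) with overlap. Whether the treatments differed is tested further on.

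The 9 H2-Mv genes had mostly negative differences. In odor 8 of 9 differences were negative, with a median of -0.31 between -0.60 (H2-M10.6) and 0.06 (H2-M11). In vehicle 7 of 9 were negative, with a median of -0.17. Over all genes the median was -0.08 in odor and -0.10 in vehicle, so negative was the commoner sign there too. None of the 9 H2-Mv genes was called over 14 arrays in limma without the block, and 2 in odor and 3 in vehicle had an unadjusted p under 0.05. H2-M10.6 was at 3.41, 3.10, 3.51 and 3.49 in odor titled GFP+ and at 3.54, 4.06, 4.28 and 4.02 in odor titled GFP-, a difference of -0.60 ± 0.19 (SE). Its adjusted p was 0.0542 without and 0.0478 with the pools as a block, and its vehicle difference was -0.54 ± 0.22 (SE, adjusted p = 0.163). H2-M10.6 reached at most 4.77 over all 16 libraries, under the negative control median of 5.46. The other 8 H2-Mv genes had means from 2.94 to 4.73 in the odor groups, also all under that median. H2-Ke6 also had negative differences, -0.30 ± 0.21 and -0.59 ± 0.25 (SE, adjusted p = 0.448 and 0.168).

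The remaining class I genes were not called in either treatment over 14 arrays. H2-T10, H2-T22, H2-T24 and H2-T3, all genes of the T region, differed by 0.21 to 0.41 in odor and by 0.12 to 0.43 in vehicle. H2-Q10, known as a secreted liver molecule, differed by 0.19 ± 0.17 and 0.53 ± 0.20 (SE), and H2-Bl by 0.07 ± 0.15 and 0.23 ± 0.17 (SE).

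In counts, 12 of 35 members were called higher and 0 lower in odor titled GFP+ over 14 arrays, 7 of 25 class I genes and 5 of 9 class II genes. Over all 19505 genes 8.59% were called higher and 4.59% lower. In vehicle 13 members were higher and 1 lower (7 class I and 6 class II genes higher), where 7.86% of all genes were higher and 3.32% lower. Both treatments called 10 members: H2-Aa, H2-Ab1, H2-Eb1, H2-DMa, H2-Oa, H2-K1, H2-D1, H2-Q2, H2-Q4 and H2-T23. Over 16 arrays 9 members were called in odor, all higher and 3 of them class II, where 4.57% of all genes were called higher and 2.39% lower. With the pools as a block those 9 became 0, 12 members had an unadjusted p under 0.05 in that fit, and 0% and 0.0103% of all genes were called higher and lower. Over 14 arrays the block gave 10 members higher and 1 lower in odor (8.77% and 4.79% of all genes) and 13 and 1 in vehicle (8.2% and 3.67%). In vehicle over 16 arrays 0 members and 0% of all genes were called by limma, and 12 members had an unadjusted p under 0.05. The median difference over 14 arrays was 0.21 in odor and 0.28 in vehicle for class I, 0.82 and 1.35 for class II, and -0.08 and -0.10 for all genes.

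Centring each array on its own median moved the all-gene median to -0.43 in odor and -0.46 in vehicle over 14 arrays. The class I median then turned to -0.14 and -0.08, while the class II median stayed positive at 0.47 and 1.00. Positive differences went from 24 to 17 of 35 members in both treatments. The calls became 9 higher and 10 lower in odor and 13 higher and 6 lower in vehicle. In the centred fits 6.89% of all genes were called higher and 44.8% lower in odor, and 6.78% and 36.3% in vehicle. Over all genes the share of calls that were higher went from 65.2% to 13.3% and from 70.3% to 15.8%. Quantile normalization gave shares of 49.3% and 52.8%. It called 10 members higher and 0 lower in odor, where 7.81% of all genes were called higher and 8.02% lower. In vehicle it called 12 members higher and 2 lower, against 7.19% and 6.42% of all genes. H2-Aa, H2-Ab1, H2-Eb1, H2-K1 and H2-D1 were called higher in both treatments under each of these scalings.

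**Figure D3:**
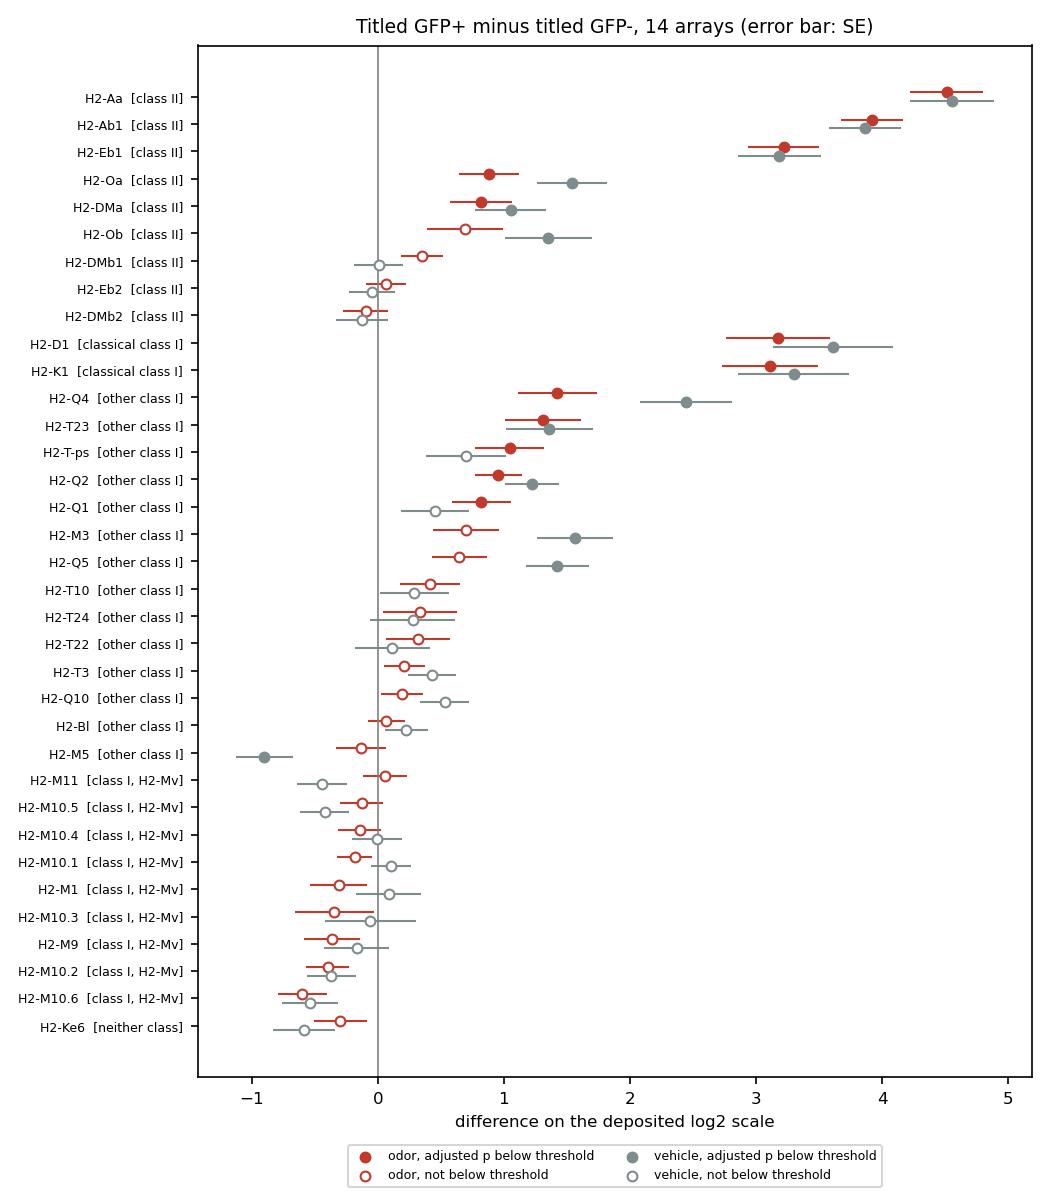
Difference between the titled GFP+ and titled GFP- groups for each H2 gene over 14 arrays on the deposited log2 scale (horizontal axis), with its SE, in odor (red) and vehicle (grey). Filled points have a limma adjusted p below the threshold: the 3 class II chains H2-Aa, H2-Ab1 and H2-Eb1 and the classical class I genes lie past 3 in both treatments, and the H2-Mv genes lie mostly below 0.

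Pool by pool, 14 members were higher in the titled GFP+ library in each of the 7 pools other than vehicle replicate 3, 8 of class I and 6 of class II. This held for 10.7% of all genes. Only H2-M10.2 and H2-M10.6 were lower in each of the 7 pools, against 10.5% of all genes. In vehicle replicate 3 S100a5 ran opposite to its other pools, and how many of all genes reversed there was not counted. Of the 14 members, 14 were lower in the titled GFP+ library of that pool, which is therefore not read as particular to H2 genes. There H2-Aa differed by -5.06, H2-Ab1 by -4.89, H2-D1 by -2.60, H2-K1 by -2.39 and H2-Eb1 by -2.32, whereas the other 7 pools gave 3.98 to 5.18, 3.35 to 4.62, 2.20 to 4.43, 2.17 to 4.80 and 2.35 to 4.24 for these 5 genes. Without overlap between groups, 13 members were higher and 2 lower in odor, against 8.9% and 7.6% of all genes. In vehicle without replicate 3 these were 15 and 2 members, against 12.6% and 14.9%.

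The odor itself was tested within each titled fraction, and no H2 gene was called. Over 14 arrays limma called 0 members and 0.0359% of all genes in titled GFP+, and 0 members and 0.0256% in titled GFP-. Unadjusted, 4 members in titled GFP+ and 0 in titled GFP- had a p under 0.05. The share of all genes under that unadjusted cut is not given. Such counts, here and elsewhere, are therefore not read as results about the members. Over 16 arrays 0 members were called in either fraction, where 0% and 0.0103% of all genes were, and 0 members had an unadjusted p under 0.05 in either. Both tests share no libraries with each other, but each uses libraries of the fraction comparisons above.

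The 4 members were H2-Q5, H2-M3, H2-M10.5 and H2-Q4. H2-Q5 was at 5.11 ± 0.40 (SD, n = 4) in odor and 5.99 ± 0.41 (SD, n = 3) in vehicle, both titled GFP+, a difference of -0.88 ± 0.24 (SE) with a limma adjusted p of 0.289. H2-M3 differed by -0.87 ± 0.28 (SE, adjusted p = 0.436) and H2-Q4 by -0.78 ± 0.34 (SE, adjusted p = 0.603). H2-M10.5 went the other way, by 0.53 ± 0.18 (SE, adjusted p = 0.476), and it alone did not overlap between odor and vehicle in titled GFP+, where 4.27% of all genes were higher and 3.45% lower without overlap. In titled GFP- the 1 such member was H2-Oa, higher in odor by 0.41 ± 0.26 (SE, adjusted p = 0.762), where 4.27% of all genes were higher and 3.83% lower.

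For the members with wide fraction gaps the intervals bound what could have been missed. In titled GFP+, H2-Aa differed between odor and vehicle by -0.22 (95% interval -0.89 to 0.44), H2-Eb1 by -0.23 (-0.88 to 0.43) and H2-Ab1 by -0.15 (-0.72 to 0.42). H2-K1 differed by -0.66 (-1.54 to 0.22) and H2-D1 by -0.61 (-1.57 to 0.34). Class I intervals were thus the wider ones. In titled GFP- the differences were -0.18 for H2-Aa and -0.47 for H2-K1, and over all members the differences there ran from -0.47 to 0.49.

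Whether the fraction gap itself depended on the odor was tested as the odor gap minus the vehicle gap, and 0 members were called over 14 or 16 arrays (0.0103% and 0.00513% of all genes). H2-M5 had the smallest unadjusted p over 14 arrays, 0.0229, with a difference of 0.76 ± 0.30 (SE), followed by H2-Q5 (0.0339, -0.78 ± 0.33) and H2-M3 (0.0470, -0.87 ± 0.40). The genes called in 1 treatment alone are therefore not shown to differ between treatments. For H2-Aa the gap differed by -0.04 (95% interval -0.99 to 0.90) and for H2-K1 by -0.19 (-1.43 to 1.06).

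**Figure D4:**
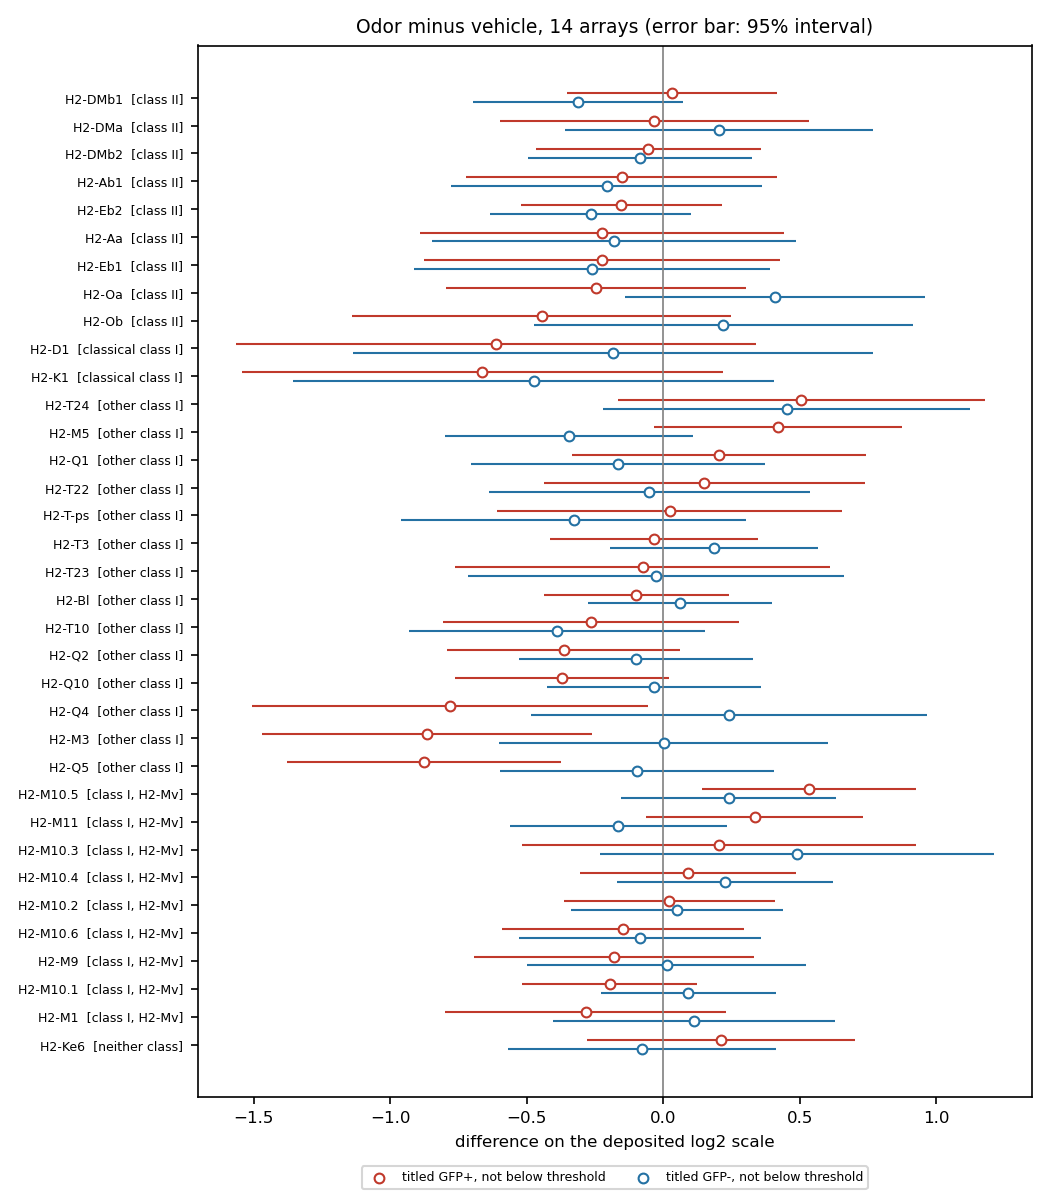
Odor minus vehicle difference for each H2 gene over 14 arrays on the deposited log2 scale (horizontal axis), with its 95% interval, in titled GFP+ (red) and titled GFP- (blue). All points are open because none had a limma adjusted p below the threshold, and the lowest points are H2-Q5, H2-M3 and H2-Q4 in titled GFP+.

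Genes that build class I complexes were read from a list of 15, of which 14 were measured. Over 14 arrays 5 of 14 were higher in titled GFP+ in odor and 5 of 14 in vehicle, 0 lower, with list medians of 0.11 and 0.15 (all genes, -0.08 and -0.10). For this list and those that follow, the share of all genes called was 8.59% higher and 4.59% lower in odor, and 7.86% higher and 3.32% lower in vehicle. B2m, which encodes beta-2 microglobulin, was at 14.70 ± 0.42 titled GFP+ and 10.99 ± 0.44 titled GFP- in odor (SD, n = 4 each), and differed by 3.71 ± 0.25 (SE) there and by 3.63 ± 0.28 (SE) in vehicle (limma adjusted p = 4.09e-08 and 3.8e-07). The immunoproteasome subunits Psmb8 and Psmb9, which cut peptides for class I, differed by 1.34 and 0.63 in odor and by 1.96 and 0.78 in vehicle. Psme1, part of the proteasome activator, differed by 1.09 and 1.29. With the pools as a block the odor count was 3 of 14, and Psmb9 then had an adjusted p of 0.0575. Tap1, a subunit of the peptide transporter, was called in vehicle (1.71 ± 0.40, SE) and not in odor (0.88 ± 0.34, SE, adjusted p = 0.124). The general chaperones of the endoplasmic reticulum, Calr, Canx and Pdia3, differed by -0.01, -0.02 and -0.04 in odor and were not called.

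For the class II pathway 12 of 13 listed genes were measured, and 5 of 12 were higher in odor and 4 of 12 in vehicle, 0 lower, with medians of 0.32 and 0.46. Ifi30, a lysosomal reductase that opens antigen for processing, was at 10.67 ± 0.72 against 7.00 ± 0.33 in odor (SD, n = 4 each) and differed by 3.67 ± 0.30 (SE), and by 4.31 ± 0.34 (SE) in vehicle (limma adjusted p = 3.73e-07 and 4.53e-07). Marchf1, a ubiquitin ligase that takes class II molecules off the surface, differed by 2.13 and 2.91. Ctss, the protease that trims the class II chaperone, differed by 2.10 and 1.94, and Cd80, a costimulatory ligand, by 2.00 and 1.96. Ciita, the coactivator that drives class II transcription, was at 6.07 ± 0.20 and 5.67 ± 0.25 in odor (SD, n = 4 each), a difference of 0.40 ± 0.16 (SE, adjusted p = 0.126) that was not called. The DNA-binding partners Rfx5, Rfxap and Rfxank differed by -0.27, 0.06 and -0.02 in odor.

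Of the class I-like genes outside the H2 complex, 8 of 12 listed were measured. Among these 2 were higher in odor and 1 in vehicle, 0 lower, and 0 with the pools as a block. The vehicle count of 1 of 8 is near the 7.86% of all genes. Cd1d1, which presents lipids to natural killer T cells, differed by 0.57 ± 0.16 (SE, limma adjusted p = 0.0258, and 0.0776 with the block) in odor, and Ulbp1, a ligand of the receptor Klrk1, by 0.90 ± 0.28 (SE, adjusted p = 0.0475, and 0.0659 with the block). Medians were 0.22 and 0.16.

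From the interferon response list 21 of 22 genes were measured, and 6 of 21 were higher in odor and 4 of 21 in vehicle, 0 lower, with medians of 0.36 and 0.29. Irf7 and Irf1, transcription factors of the interferon response, differed by 1.17 ± 0.17 and 1.59 ± 0.29 (SE) in odor and by 1.02 and 1.95 in vehicle. Ifngr1, a chain of the interferon gamma receptor, differed by 0.78 and 1.51, and Irgm1, an interferon-induced GTPase, by 1.12 in odor and 0.87 in vehicle (limma adjusted p = 0.0185 and 0.138). Ifng itself differed by -0.10 ± 0.22 (SE) in odor. Ifit1, a sensor of foreign RNA, differed by -0.49 in odor and -0.60 in vehicle and was called lower only with the pools as a block (adjusted p = 0.0454 and 0.0383).

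Receptors that read H2 molecules were measured for 11 of 13 genes, and 3 of 11 were higher in each treatment, 0 lower, with medians of 0.54 and 0.56. Pirb, an inhibitory receptor for class I molecules, was at 9.01 ± 1.18 titled GFP+ and 4.72 ± 0.40 titled GFP- in odor (SD, n = 4 each) and differed by 4.29 ± 0.49 (SE), and by 4.66 ± 0.56 (SE) in vehicle (limma adjusted p = 1.33e-05 and 3.14e-05). Klra2, a Ly49 receptor, differed by 1.42 and 1.67, and Cd8b1, a chain of the CD8 coreceptor, by 1.37 and 1.81. Cd4 differed by -0.25 ± 0.28 (SE, adjusted p = 0.665) in odor. Over 16 arrays the odor counts of the 5 lists in the order given were 2, 1, 0, 1 and 1, all of which became 0 with the pools as a block. The vehicle counts were 0 each in limma, while 5, 2, 0, 7 and 4 genes passed 0.05 before adjustment. No gene of the 5 lists was called between odor and vehicle in either fraction over 14 arrays, where 3, 1, 0, 4 and 0 genes in titled GFP+ and 0, 2, 0, 4 and 0 in titled GFP- had an unadjusted p under 0.05.

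Markers of white blood cells moved with the H2 genes. All 5 of 5 measured pan-leukocyte genes were higher in titled GFP+ in each treatment over 14 arrays, among them Ptprc, the common leukocyte antigen CD45, by 4.66 ± 0.43 (SE) in odor and 4.84 ± 0.49 (SE) in vehicle (limma adjusted p = 1.38e-06 and 6.17e-06). The mean level of the list ran from 9.15 to 11.34 in odor titled GFP+ and from 6.01 to 6.91 in odor titled GFP-, and in vehicle without replicate 3 from 10.83 to 11.62 and from 6.31 to 6.80. Vehicle replicate 3 was at 6.29 titled GFP+ and at 9.61 titled GFP-. The list stood at 11.34, 10.87, 10.29 and 9.15 in odor titled GFP+, beside H2-K1 at 12.50, 11.74, 10.68 and 10.51. The sustentacular list of the epithelium fell in the same order there, at 11.94, 11.63, 10.51 and 10.49. H2-Aa, at 11.41, 11.09, 10.79 and 10.09, also fell in that order. H2-Ab1, at 10.67, 10.75, 9.85 and 10.38, did not. Nor did H2-Eb1, at 8.88, 9.35, 8.15 and 7.83, or H2-D1, at 9.19, 8.71, 7.29 and 7.30. The part of white blood cells or of epithelial cells in the H2 differences was not tested.

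By cell type, the neutrophil list (7 of 7 genes higher in each treatment) had the widest gap, from 11.48 to 14.82 titled GFP+ and from 4.44 to 6.38 titled GFP- in odor. Neutrophils are not known as major class II cells. For cell types that are, B cell genes were higher for 3 of 6 in odor and 2 of 6 in vehicle, led by Cd79a (2.02 ± 0.58, SE, in odor) and Cd79b (1.78 ± 0.44, SE), chains of the B cell receptor. Their list ran from 4.46 to 5.98 titled GFP+ and from 3.92 to 4.05 titled GFP- in odor. Macrophage and monocyte genes were higher for 4 of 10 and 2 of 10, with Ly6c2 at 8.17 ± 0.50 (SE) and Csf1r, the growth factor receptor of macrophages, at 1.58 ± 0.39 (SE) in odor. C1qa, C1qb and C1qc, complement genes of tissue macrophages, were not called (0.33, 0.85 and 0.43 in odor). Dendritic cell genes were higher for 3 of 7 in each treatment, with Cd209a at 1.60 ± 0.21 (SE) in odor. Xcr1 and Clec9a, which define the cross-presenting subset, differed by 0.05 and 0.07 and had means from 3.23 to 3.53. In odor titled GFP+ the dendritic cell list ran from 4.61 to 4.94 and the B cell list had a mean of 5.01. Both lay under the negative control median of 5.46. The macrophage and monocyte list lay above it in both odor fractions, with a mean of 7.30 titled GFP+ and 5.81 titled GFP-. Which cell type carried the H2 RNA was not tested. T cell genes were higher for 2 of 4 and natural killer cell genes for 3 of 4 in each treatment. No marker lies at 0 on this log2 scale.

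Markers of the epithelium varied by list, read against 8.59% of all genes higher and 4.59% lower in odor and 7.86% and 3.32% in vehicle. Sustentacular genes were higher for 4 of 7 in odor and 3 of 7 in vehicle, microvillar genes for 5 of 5 in each, globose basal genes for 4 of 4 and 3 of 4, and immature neuron genes for 3 of 5 in each. Mature olfactory sensory neuron genes were lower for 1 of 8 in each treatment and higher for 0 of 8. Horizontal basal and endothelial genes were called for 0 of 4 each in both treatments. Their unadjusted counts in limma were 0 and 2 in odor, and 2 and 0 in vehicle. Bowman gland genes were higher for 2 of 5 in each treatment, ensheathing glia for 0 of 4 and 1 of 4, fibroblast genes for 1 of 4 and 0 of 4, and red blood cell genes for 1 of 2 and 2 of 2. In lists this short, counts of 0 or 1 are near the share of all genes. In the vomeronasal list, Gnai2 was higher (4.33 ± 0.41, SE, in odor) and 0 of the other 4 measured genes was called. Among those 4 were the vomeronasal receptors Vmn2r1 and Vmn2r2 at -0.26 each.

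**Figure D5:**
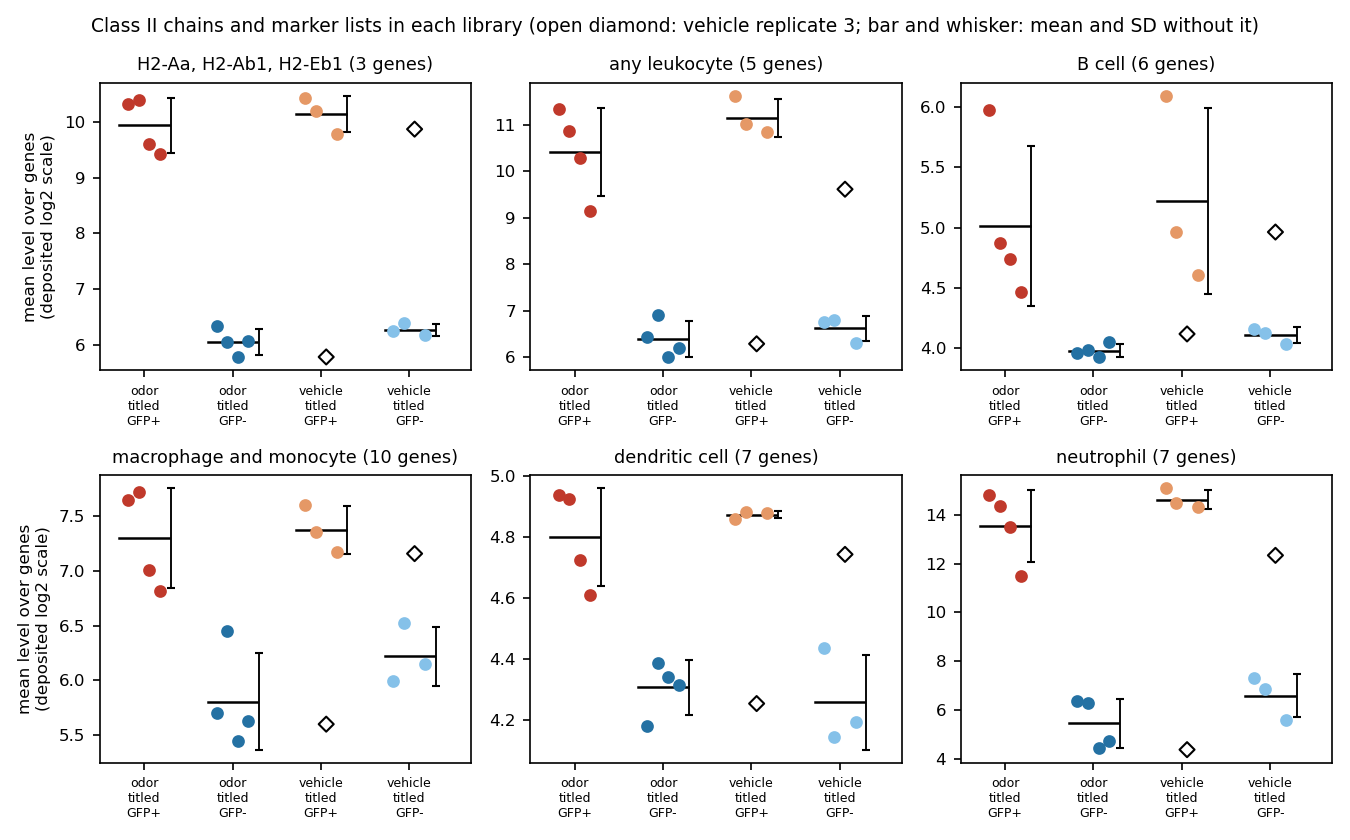
Mean level of each list in each library on the deposited log2 scale (vertical axis) for the 4 groups, with 1 point per library, an open diamond for vehicle replicate 3, and the mean and SD of the other libraries. The class II chains and the leukocyte lists are higher in titled GFP+ than in titled GFP- in both treatments, with vehicle replicate 3 the other way round.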

How the data were processed

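The authors deposited 1 table of log2 values for the arrays of 16 samples. The submitters' processing notes name Affymetrix Expression Console. Its version, how probes were summarized and which build was used: not given in the sources used here. Of 28846 probe sets, 19572 had 1 gene symbol in the platform annotation and 0 had several. The probe set with the highest mean over 16 arrays stood for each of 19505 genes. Library medians lay between 6.13 and 6.45, and precision is limited by how few arrays each group has.

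Groups followed the sample titles. Differences were tested on the log2 values by two-sided tests in limma 3.58.1 (R 4.3.3), using lmFit then eBayes on 1 model of 4 group means without a block. The Benjamini-Hochberg method, run over 19505 genes, gave the adjusted p, with a threshold of 0.05, which is what "called" means. The model was checked on simulated data in which all libraries were independent. These data held no shared mice and no reversed pool, so that check does not cover either. The odor fraction comparison has the same means over 16 and 14 arrays, and only its spread differs.

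Titles give 3 mice per library, so with 24 mice in all the same-numbered libraries of a treatment shared their mice, and the 8 pools were also fitted as a block (random where treatments were compared). Deviations of the 2 libraries of a pool correlated from -0.754 to 0.253 over 16 arrays and from -0.0221 to 0.287 over 14.

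The members, the gene lists, the rule for named genes and the 14-array set were chosen with earlier results of these data known. The rule gave library values for H2-K1, H2-D1, the class II chains and up to 8 called members per class by p, and named up to 4 passing members of each pathway list. Other list genes, named beside them, were chosen after their values were seen. Alternatives were the block, centring, quantile normalization, the mean of all probe sets, a filter at the negative control median, a trended and robust variance, array weights and each library left out. Motifs were counted in RefSeq promoter sequences.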

Additional observations from a re-analysis of the deposited data

Results flagged for a closer look

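In groups of 4 libraries, a highest or lowest value was singled out where its gap to the nearest library took an unusually large share of the group's range (Dixon's test at 95%). Of 140 tests over 35 genes and 4 groups, 8 were found, and chance gives about 5% of such groups. Of these, 6 lay in vehicle replicate 3. Its titled GFP+ library had the lowest H2-Aa (5.94, nearest library 10.91) and H2-K1 (8.36, nearest 11.81) of its group and the highest H2-M10.6 (4.77, nearest 3.66). Its titled GFP- library had the highest H2-Aa (11, nearest 6.82), H2-Ab1 (10.80, nearest 7.06) and H2-Eb1 (7.81, nearest 5.76). The rest were H2-Oa in odor replicate 4 titled GFP- (4.40, nearest 4.15) and H2-Q5 in odor replicate 1 titled GFP+ (5.70, nearest 4.97).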

How the results depend on the processing

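Over 16 arrays the 9 odor calls became 0 with the pools as a block, 3 with a trended and robust variance, and 0 to 10 when 1 library was left out. They became 0 without any 1 of the odor libraries other than titled GFP+ replicate 4, and 5 without vehicle titled GFP- replicate 1 or 4. The 0 vehicle calls became 12 with array weights and 0 to 10 when 1 library was left out, 10 without vehicle titled GFP+ replicate 3. Over 14 arrays the 12 odor calls became 19 after centring and were 8 to 13 with 1 library left out, 8 without odor titled GFP+ replicate 1. The 14 vehicle calls became 7 among genes above the negative control median, where 7 of the members called are not tested, and were 11 to 14 with 1 library left out. The block gave 11 odor and 14 vehicle calls over 14 arrays, and changed no call between odor and vehicle. H2-Aa, H2-Ab1, H2-Eb1, H2-K1 and H2-D1 were called over 14 arrays under all 7 other settings and all 14 fits with 1 library left out, in both treatments. H2-DMa was lost under 3 settings and 5 left-out libraries in odor, and under 1 and 4 in vehicle. In odor H2-Q1 was lost under 1 and 4, H2-T-ps under 2 and 3, and H2-Oa under 1 and 2. In vehicle, where no other setting that tested them lost them, H2-Ob was lost without 3 single libraries, and H2-M5 and H2-T23 without 2 each.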
